A study of Mus musculus with 5 samples.

Results

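Arterial endothelial cells, the cells that line the arteries of the lung, were picked out of dissociated whole lungs of E18.5 mouse embryos. A barcode was counted as arterial when it held 500 genes or more, 15% or less of its UMIs (unique molecular identifiers, each standing for 1 captured RNA molecule) were mitochondrial, and it had a UMI for at least 2 of 4 endothelial genes (Cdh5, Pecam1, Cldn5, Tie1). It also needed a UMI for at least 2 of 5 arterial genes (Gja5, Gja4, Bmx, Dkk2, Hey1) and no UMI of Prox1, Mmrn1, Ptprc, Epcam or Pdgfra, which mark lymphatic, blood-derived, epithelial and mesenchymal cells. These steps left 297 arterial cells among 1294 endothelial cells, among 19491 barcodes that passed the gene and mitochondrial limits and 50355 barcodes in all. Of 616 barcodes that met every other limit for arterial cells, 319 were left out for a UMI of Prox1, Mmrn1, Ptprc, Epcam or Pdgfra. The same steps, with fewer than 2 of the 5 arterial genes, gave 997 other endothelial cells.

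The study sequenced 5 lung libraries with the 10x Chromium 3′ kit, each from 1 embryo: 2 from Zswim8+/- embryos (Het1 and Het2) and 3 from Zswim8-/- embryos (KO1, KO2 and KO3). ZSWIM8 is the substrate receptor of a Cullin-RING ubiquitin ligase that takes part in target-directed microRNA degradation, in which a trigger RNA paired to a microRNA leads to loss of the Argonaute protein that holds it. The control embryos carry 1 mutant allele as well, no wild-type library was used here, and no tissue-restricted allele is named in the labels. Xist and Y-linked UMIs placed KO1 and KO2 as female and Het1, Het2 and KO3 as male, so sex and genotype overlap in part. As every female library is KO, a fit with sex as a covariate rests its genotype estimate on KO3 against Het1 and Het2. Where values of single libraries are listed below, Het1 comes before Het2, and KO1 before KO2 and KO3.

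Arterial endothelium takes its identity from VEGF and Notch signalling, with Dll4 and Jag1 as ligands, Notch1 and Notch4 as receptors and Hey1, Hey2 and Efnb2 downstream. Arterial cells are coupled by the connexins Gja4 and Gja5, and they secrete elastic-fibre proteins and the chemokine Cxcl12. Next to them in the lung lie 2 capillary types, general capillary cells and the flat, gas-exchanging aerocytes that carry Car4.

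The arterial cells numbered 66 in Het1, 51 in Het2, 47 in KO1, 63 in KO2 and 70 in KO3. Their summed UMIs ran from 555349 in KO1 to 1199840 in KO3, and the median arterial cell held 7353 UMIs in KO1, 7474 in Het1, 8834 in Het2, 10187 in KO2 and 11522 in KO3. The deepest cells were thus in KO2 and KO3. No arterial cell shared its barcode with an arterial cell of another library. Of the 297 cells, 5 in Het1, 2 in KO2 and 3 in KO3 were among those scored as likely doublets, and 36 to 52 per library held a UMI for at least 3 markers of other cell types. In barcodes dominated by haemoglobin, which serve as a measure of free RNA, the median depth was 2328 to 2622 UMIs.

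Zswim8 itself (chromosome 14, 20707552 to 20723619, plus strand, GRCm38) gave 46.6 and 43.0 CPM (UMIs in every 1000000, with TMM-scaled library sizes) in arterial cells of the Het libraries, and 61.7, 50.7 and 58.6 CPM in the KO libraries. The KO libraries sat above the Het libraries, by a log2 fold change of 0.34 (SE 0.21, adjusted p = 0.677, edgeR quasi-likelihood test). The 3′ counts of this kit do not show which allele a transcript comes from, so they do not check the genotype, and every direction below rests on the labels.

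The 5 arterial genes that chose the cells were not found equally often. Gja4 had a UMI in 95.6% of the 297 cells and Hey1 in 89.6%, against 45.1% for Gja5, 35.0% for Bmx and 32.7% for Dkk2. In the other endothelial cells the shares were 7.12% for Gja4, 23.3% for Hey1, 0.301% for Gja5, 0.502% for Bmx and 0.201% for Dkk2, and in the haemoglobin barcodes they lay between 0.0960% (Dkk2) and 0.429% (Gja4). Gja4 and Hey1 were thus found most often in the selected cells, and Hey1 most often in the other endothelial cells. Both classes were cut by these same 5 genes, so a gene that mostly occurs with another of them is rare in other endothelial cells by construction. The shares therefore do not show how narrow each gene is.

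Of the 297 cells, 147 carried exactly 2 of the 5 genes, 56 carried 3 and 94 carried 4 or 5. The pair in 123 of the 147 cells was Gja4 with Hey1. Just outside the limit lay 313 endothelial cells with 1 of the 5 genes. The median depth was 8525 UMIs with 1 gene, 8153 with exactly 2, 7655 with 3 and 14810 with 4 or 5, so the cells with most arterial genes were also the deepest.

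From 1 gene upward, the summed level of arterial genes outside the selection was higher with each step in this number. A list of 24 further arterial genes summed to 1943 plain CPM (UMIs in every 1000000 of the summed cells, with no scaling) in cells with 1 of the 5 genes, 4475 with exactly 2, 9003 with 3 and 20589 with 4 or 5. The 684 endothelial cells with 0 of the 5 genes did not continue this order, at 2532 plain CPM for the list and 79.4 for Stmn2, both above the cells with 1 gene. Cxcl12 went from 84.2 plain CPM with 1 gene to 737, 2983 and 4191, and Stmn2, a microtubule-binding stathmin, from 64.5 to 194, 535 and 1195. Efnb2, the ephrin ligand of arteries, went from 138 to 295, 507 and 628. The 9 aerocyte markers ran the other way, with 739 plain CPM at 0 genes and then 524, 429, 171 and 179, and Car4 alone with 107, 55.4, 42.1, 3.14 and 1.53. The 9 general-capillary markers were nearly flat, at 2350, 2576, 2876, 2299 and 2370 plain CPM. Pooled over the 5 libraries, cells with exactly 2 genes thus held arterial and aerocyte transcripts together. Cells with at least 3 held more of the arterial and fewer of the aerocyte ones, with no such step in general-capillary transcripts. The 11 vein markers rose as well. In the Het libraries they were at 305 and 263 plain CPM with exactly 2 genes and 701 and 1042 with at least 3. In the KO libraries they went from 518, 264 and 312 to 825, 656 and 702. Pooled, they were at 518 plain CPM with 0 genes and 231 with 1. The aerocyte step was larger in the Het libraries. With exactly 2 genes the 9 aerocyte markers were at 523 and 788 plain CPM there, against 230, 204 and 345 in the KO libraries. With at least 3 they were at 193 and 176 against 200, 148 and 179. Car4 with exactly 2 genes was at 77.7 and 116 plain CPM against 0, 4.75 and 2.50. These values describe cells sorted by related genes and carry no test. Single barcodes with RNA of neighbouring cells and true intermediate cells cannot be told apart here. Below, cells with exactly 2 of the 5 genes are called low-marker and cells with at least 3 high-marker arterial cells.

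**Figure D1:**
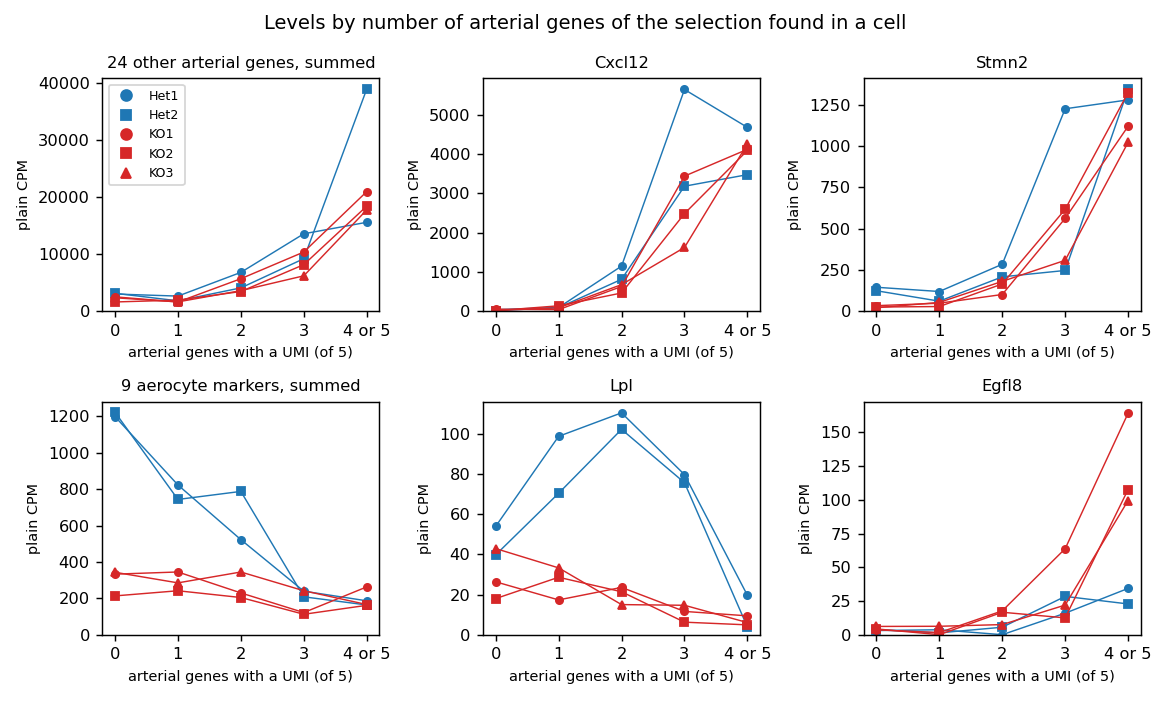
Levels in endothelial cells grouped by how many of the 5 arterial genes of the selection had a UMI (x axis), as plain CPM of each library's summed cells (y axis, linear, from 0), for 2 list sums and 4 genes; each line is 1 library. The arterial list climbs from 1 gene to the right in all 5 libraries but is higher at 0 genes than at 1 in 4 of them, the aerocyte list is highest at 0 genes in both Het libraries, and Egfl8 with 4 or 5 genes is higher in the 3 KO libraries than in both Het libraries.

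Arterial cells made up 16.5% of the endothelial cells in Het1 and 19.8% in Het2, against 21.5% in KO1, 29.4% in KO2 and 34.3% in KO3. Every KO library lay above both Het libraries, with means of 18.2% ± 2.28 (SD, n = 2) and 28.4% ± 6.49 (SD, n = 3). The difference of 10.3 percentage points had a two-sided exact permutation p of 0.2, and the smallest p that 2 against 3 libraries can give is 0.1. Each cell was then thinned to 5000 UMIs, which removes the depth difference between libraries and leaves out shallower cells. The whole selection was rerun on the thinned counts, so cells could also enter when their UMIs of Prox1, Mmrn1, Ptprc, Epcam or Pdgfra were lost. It gave 229 arterial among 1431 endothelial cells, not the same set as before. The shares were 11.9% and 11% in the Het libraries and 17.6%, 19.9% and 23.2% in the KO libraries (exact permutation p = 0.1). The order between the groups stayed, at lower values. As a share of all 19491 kept barcodes, arterial cells were 1.37% and 1.21% in the Het libraries and 1.5%, 1.90% and 1.74% in the KO libraries (exact permutation p = 0.2).

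Counted by marker number, the groups did not overlap in high-marker or in low-marker cells, and the directions were opposite. High-marker cells numbered 27 in Het1 and 16 in Het2, against 32 in KO1, 38 in KO2 and 37 in KO3. Low-marker cells were fewer in the KO libraries, at 39 and 35 against 15, 25 and 33. High-marker cells were 40.9% and 31.4% of arterial cells in the Het libraries and 68.1%, 60.3% and 52.9% in the KO libraries, with no overlap. After thinning to 5000 UMIs these shares were 37.5% and 33.3% against 64.1%, 60.4% and 62.5%. Of all endothelial cells, high-marker cells were 6.77% and 6.20% in the Het libraries and 14.6%, 17.8% and 18.1% in the KO libraries. These shares are cut by the genes of the selection and carry no test. More arterial cells and more RNA of these 5 genes per cell cannot be told apart by such a count.

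**Figure D2:**
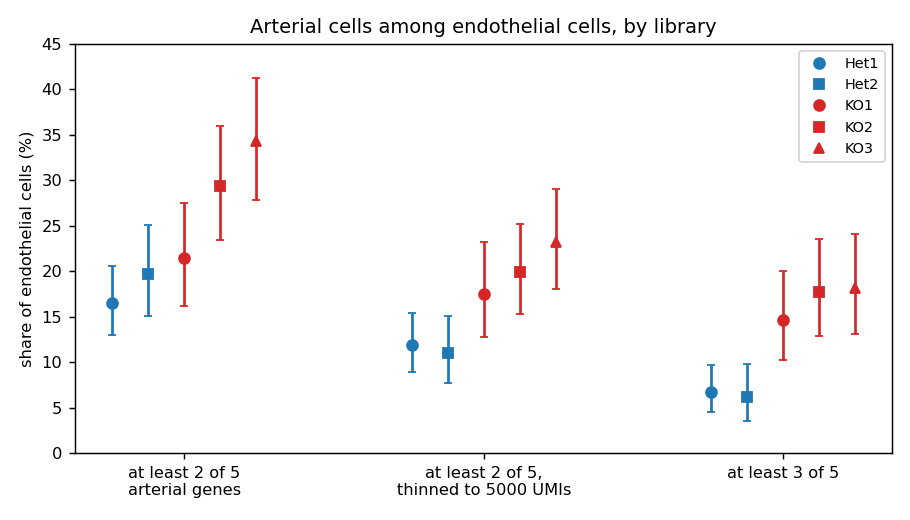
Share of endothelial cells called arterial (y axis, percent, from 0) in each of the 5 libraries, by the selection used, after thinning each cell to 5000 UMIs, and with at least 3 of the 5 arterial genes; points are libraries and bars exact 95% binomial intervals, which cover counting error only. The 3 KO libraries lie above both Het libraries in all 3 groups of points, most clearly with at least 3 genes.

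Genotype effects on gene levels were then tested on the summed counts of each library's arterial cells. Of 8265 genes tested, 11 passed an adjusted p of 0.05 (0.133% of the genes tested), 1 higher in KO (0.0121%) and 10 lower (0.121%). Those lower were Lpl, Cd36, Hilpda, Pltp, Car4, Tbx3, Scn3b, Neat1, S100a8 and S100a9, and the one that rose was Egfl8. All 11 had Het and KO values that did not overlap, as did 27% of all genes tested, and 9.55% of all genes had an unadjusted p under 0.05. The calls depended on single libraries: without Het2, and without KO2, edgeR called 0 genes (569 and 626 at an unadjusted p under 0.05), and without Het1, KO1 or KO3 it called 48, 25 and 25. With sex as a covariate most of the 11 genes lost their call, but there the genotype estimate rested on KO3 against Het1 and Het2.

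Egfl8 encodes a secreted protein with EGF-like domains and lies on chromosome 17 (34613349 to 34615971, minus strand, GRCm38), where it overlaps Agpat1 on the opposite strand and Gm20460 on the same strand. Its level was 18.9 and 15.3 CPM in the Het libraries and 88.9, 55.9 and 62.1 CPM in the KO libraries. The lowest KO library was well above the higher Het library. It rose by a log2 fold change of 1.96 (SE 0.30, adjusted p = 0.0448, edgeR). The call was lost under 7 of 16 alternatives, at a fold change of 1.73 to 2.12: among them were plain library-size scaling (adjusted p = 0.0606), the sex covariate (0.136), and leaving out Het1 (0.0508), Het2 (0.241) or KO2 (0.0741). Egfl8 UMIs were found in 13.6% and 11.8% of the arterial cells of Het1 and Het2 and in 46.8%, 28.6% and 35.7% of those of KO1, KO2 and KO3. In other endothelial cells the share was 1.99% to 4.48%, and in haemoglobin barcodes it was at most 0.0954%. The share of cells with Egfl8 was thus higher in arterial than in other endothelial cells in both genotypes. By number, 9 and 6 arterial against 8 and 5 other endothelial cells held it in Het1 and Het2. In the KO libraries these were 22, 18 and 25 against 4, 3 and 6. Within high-marker cells alone it gave 31.9 and 24.4 plain CPM in the Het libraries and 119, 80.9 and 86.3 in the KO libraries, and within low-marker cells 0 and 5.53 against 17.7, 16.6 and 7.50. The groups did not overlap in either, but the low-marker values rest on 15 UMIs over all 5 libraries and lie near the floor.

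Lpl, the lipase that releases fatty acids from circulating triglycerides at the vessel wall, had 63.0 and 63.9 CPM in the Het libraries and 14.5, 12.7 and 10.3 CPM in the KO libraries. Both groups were tight and far apart. It fell by 2.37 on the log2 scale (SE 0.25, adjusted p = 0.0151, edgeR). In high-marker cells Lpl was at 27.6 and 24.4 plain CPM in the Het libraries and 10.4, 5.27 and 7.50 in the KO libraries. Low-marker cells held more of it, with 111 and 102 plain CPM in the Het libraries and 23.6, 21.4 and 15 in the KO libraries. The haemoglobin barcodes split the same way, with a Lpl UMI in 3.71% and 3.67% against 0.804%, 1.38% and 2.50% of barcodes, or 12.9 and 12.7 against 2.71, 4.53 and 8.16 plain CPM. As plain CPM, the high-marker values of KO2 and KO3 were thus close to those of the haemoglobin barcodes, which are far shallower. Per barcode, haemoglobin barcodes held 0.0391 and 0.0396 Lpl UMIs in the Het libraries and 0.0080, 0.0138 and 0.0253 in the KO libraries. Arterial cells held 0.758 and 0.902 against 0.170, 0.190 and 0.171 per cell. The part of free RNA in the Lpl call was not tested.

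Cd36, a fatty-acid scavenger receptor, stood at 375 and 310 CPM in the Het libraries and 165, 158 and 151 CPM in the KO libraries, without overlap. It fell by 1.12 on the log2 scale (SE 0.15, adjusted p = 0.019, edgeR). In low-marker cells the groups did not overlap, at 660 and 559 plain CPM in the Het libraries against 194, 242 and 287 in the KO libraries. In high-marker cells the ranges overlapped, at 164 and 57.0 plain CPM against 150, 84.4 and 75.0. The mix of low-marker and high-marker cells also differed between the libraries, and its part in the Cd36 call was not tested.

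Hilpda, an inhibitor of intracellular triglyceride breakdown, had 85.6 and 107 CPM in the Het libraries and 27.2, 29.5 and 34.5 CPM in the KO libraries, and fell by 1.63 on the log2 scale (adjusted p = 0.019, edgeR). Pltp, the plasma phospholipid transfer protein, had 237 and 251 CPM against 114, 121 and 114 CPM, and fell by 1.06 (adjusted p = 0.019, edgeR). Neither gene's groups overlapped. In high-marker cells Pltp still showed no overlap, at 170 and 149 plain CPM in the Het libraries and 90.8, 91.4 and 80.0 in the KO libraries. Hilpda there was at 63.7 and 24.4 against 23.3, 28.1 and 13.8 plain CPM, with overlap.

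Car4, a membrane-bound carbonic anhydrase and the leading aerocyte marker, gave 27 and 43 UMIs in arterial cells of the Het libraries and 0, 3 and 3 UMIs in the KO libraries. These were 34.0 and 59.7 CPM against 0, 3.17 and 2.59 CPM. The fitted log2 fold change was -4.29 (SE 0.52, adjusted p = 0.019, edgeR), and its size depends on the prior count because 1 library is at 0. The UMIs lay in 9 cells of each Het library and in 0, 2 and 3 cells of the KO libraries. At most 16 of them came from 1 cell. In high-marker cells Car4 was at 2.13 and 2.71 plain CPM in the Het libraries and at 0, 1.76 and 2.50 in the KO libraries, so it was near 0 there in both genotypes. Of the 9 aerocyte markers 6 were tested and Car4 alone passed (3 lower at an unadjusted p under 0.05, Car4 included). The 9 together, Car4 included, summed to 330 and 479 plain CPM in the Het libraries and 209, 172 and 234 in the KO libraries, and in high-marker cells to 193 and 176 against 200, 148 and 179. Without the cells that held a Car4 UMI, 2 genes passed, of which 1, Lpl, was among the 11.

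Tbx3, a T-box transcription factor, had 161 and 157 CPM in the Het libraries and 72.6, 62.3 and 67.2 CPM in the KO libraries. It fell by 1.25 on the log2 scale (SE 0.16, adjusted p = 0.019, edgeR). Scn3b, a regulatory subunit of voltage-gated sodium channels, had 99.5 and 95.8 CPM against 36.3, 25.3 and 36.2 CPM and fell by 1.59 (adjusted p = 0.0206, edgeR). Both were clearly separate between the groups. Car4, Hilpda, Pltp, Tbx3 and Scn3b also had lower plain CPM in the haemoglobin barcodes of every KO library than in those of both Het libraries, at 1.15 (Scn3b) to 6.08 (Pltp) in the Het libraries and 0.180 (Car4) to 3.67 (Pltp) in the KO libraries, and the part of free RNA in their calls was not tested. Cd36 there overlapped, at 13.5 and 8.34 against 16.1, 9.63 and 10.9 plain CPM. In high-marker arterial cells Tbx3 and Scn3b overlapped between the groups, with Tbx3 at 113 and 65.1 plain CPM against 70.0, 45.7 and 50.02.

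Neat1, the nuclear RNA that builds paraspeckles, had 206 CPM in Het1, 371 CPM in Het2 and 87.1, 96.0 and 111 CPM in the KO libraries. It fell by 1.53 on the log2 scale (SE 0.23, adjusted p = 0.0385, edgeR). Unlike Cd36 and Car4, it was higher in high-marker than in low-marker cells of every library, at 270 and 610 plain CPM in the Het libraries and 106, 135 and 110 in the KO libraries. Of 267 Neat1 UMIs in Het2, 81 came from 1 cell. In haemoglobin barcodes the order was the opposite, with a Neat1 UMI in 7.88% and 6.72% of the barcodes of the Het libraries and in 15.5%, 10.7% and 11.1% of those of the KO libraries.

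S100a9 and S100a8 encode the subunits of calprotectin, a neutrophil protein. S100a9 had 63.0 and 72.2 CPM in the Het libraries and 9.07, 17.9 and 22.4 CPM in the KO libraries, and S100a8 had 46.6 and 58.3 CPM against 14.5, 15.8 and 19 CPM (adjusted p = 0.0385 and 0.0484, edgeR). The same split stood in haemoglobin barcodes, where S100a8 UMIs occurred in 40.0% and 32.7% of the barcodes of Het1 and Het2 and 13.2%, 17.4% and 17.4% of those of KO1, KO2 and KO3. In arterial cells the shares were 39.4% and 37.3% against 14.9%, 22.2% and 24.3%, at median depths of 7353 to 11522 UMIs against 2328 to 2622 in the haemoglobin barcodes. For S100a9 the shares were 48.5% and 49.0% against 10.6%, 23.8% and 24.3% in arterial cells, and 48.2% and 38.2% against 20.2%, 22.5% and 21.6% in haemoglobin barcodes. For S100a9 the arterial share was below the haemoglobin-barcode share in KO1, at 10.6% against 20.2%, and above it in the other libraries. For S100a8 it was below in Het1 and above in the others. Shares at such different depths do not compare levels, and the part of free RNA in both calls was not tested. Neither gene is read here as expression by arterial cells. Summed over 8 immune markers, arterial cells held 232 and 123 plain CPM in the Het libraries and 39.6, 55.6 and 91.7 in the KO libraries, and their part in these calls was not tested.

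**Figure D3:**
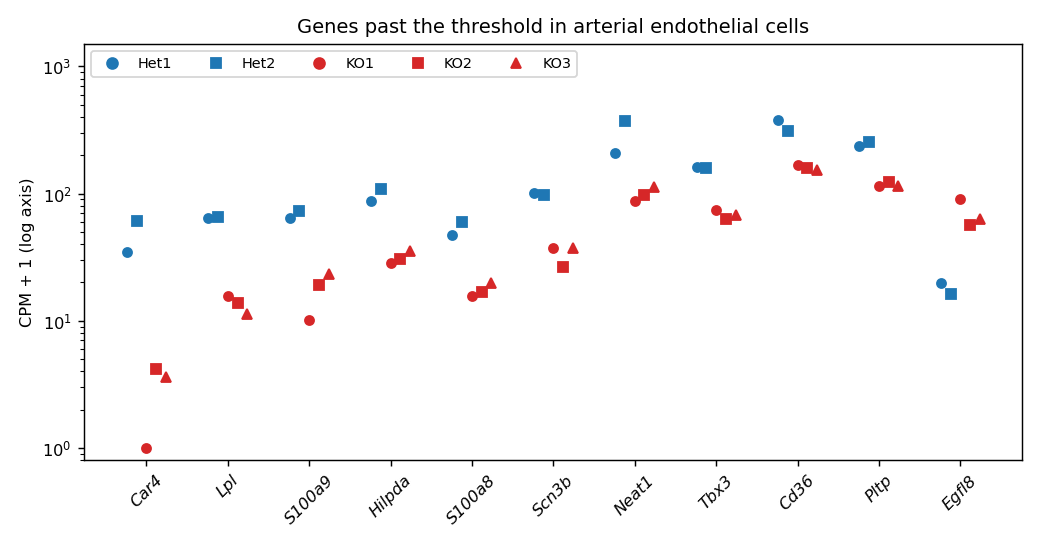
The 11 genes past an adjusted p of 0.05 in arterial cells, as CPM + 1 on a log axis (y) by gene (x), with 1 point for each of the 5 libraries. Egfl8 is the one gene with the KO libraries above, and Car4 in KO1 sits at 0 CPM.

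Set by marker number, the 11 genes separated unevenly. In low-marker cells the Het and KO values of all 11 did not overlap, where 26.1% of 5760 genes did not, and in high-marker cells 6 of 11 did not, where 25% of 6501 genes did not. These were Egfl8, Lpl, Pltp, Neat1, S100a8 and S100a9. All 11 kept their direction in both sets, though Egfl8 had only 15 UMIs in the low-marker cells of all 5 libraries. With the test run on high-marker cells alone, edgeR called 0 genes (487 at an unadjusted p under 0.05, or 7.49%), and the log2 fold changes were 1.73 for Egfl8 (adjusted p = 0.211), -1.76 for Lpl (adjusted p = 0.485) and -0.16 for Cd36 (adjusted p = 0.959). On low-marker cells alone it called 18 genes (0.312%; 638 genes, or 11.1%, at an unadjusted p under 0.05), of which 6 were among the 11. Since the cell sets were cut from the same libraries that gave the calls, these values are a description.

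The arterial programme outside the selection showed no call by edgeR. Of the 24 further arterial genes, 23 were tested in arterial cells and 0 passed (3 higher and 3 lower at an unadjusted p under 0.05, edgeR; such a p was found for 4.45% of all genes with a higher and 5.09% with a lower value), with a median log2 fold change of -0.06 beside 0.01 for all genes tested. DESeq2 called 1 of the 23, Clu, at an adjusted p of 0.0498. Sox17, a transcription factor of arterial fate, had 409 and 410 CPM in the Het libraries and 421, 385 and 389 CPM in the KO libraries. Efnb2 had 531 and 475 CPM against 523, 465 and 479 CPM. Cxcl12 ranged from 2141 CPM in Het2 to 3331 CPM in Het1, with the 3 KO libraries between them. The groups overlapped for all 3 genes, and their log2 fold changes were -0.04 (SE 0.13), -0.04 (SE 0.13) and -0.02 (SE 0.16). Sema3g, a secreted semaphorin of arteries, had 180 and 142 CPM against 200, 155 and 166 CPM.

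Among the same 24 genes the widest estimates ran both ways, and none passed with edgeR. Clu, a secreted chaperone, had 50.4 and 94.4 CPM in the Het libraries and 25.4, 29.5 and 13.8 CPM in the KO libraries (log2 fold change -1.69, SE 0.35, adjusted p = 0.106, edgeR), without overlap. Vegfc, a growth factor best known for lymphatic vessels, had 50.4 and 33.3 CPM in the Het libraries and 79.9, 87.6 and 94.8 CPM in the KO libraries (log2 fold change 1.06, SE 0.23, adjusted p = 0.109, edgeR). Unc5b, a netrin receptor of arterial cells, had 152 and 124 CPM against 216, 187 and 221 CPM (0.59, SE 0.16, adjusted p = 0.237, edgeR). Eln, the elastin gene, had 1458 CPM in Het1, 6916 CPM in Het2 and 994 to 1839 CPM in the KO libraries (-1.49, SE 0.46, adjusted p = 0.305, edgeR). The estimate for Eln turned on Het2, where 2511 of 4982 UMIs came from 1 cell.

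**Figure D4:**
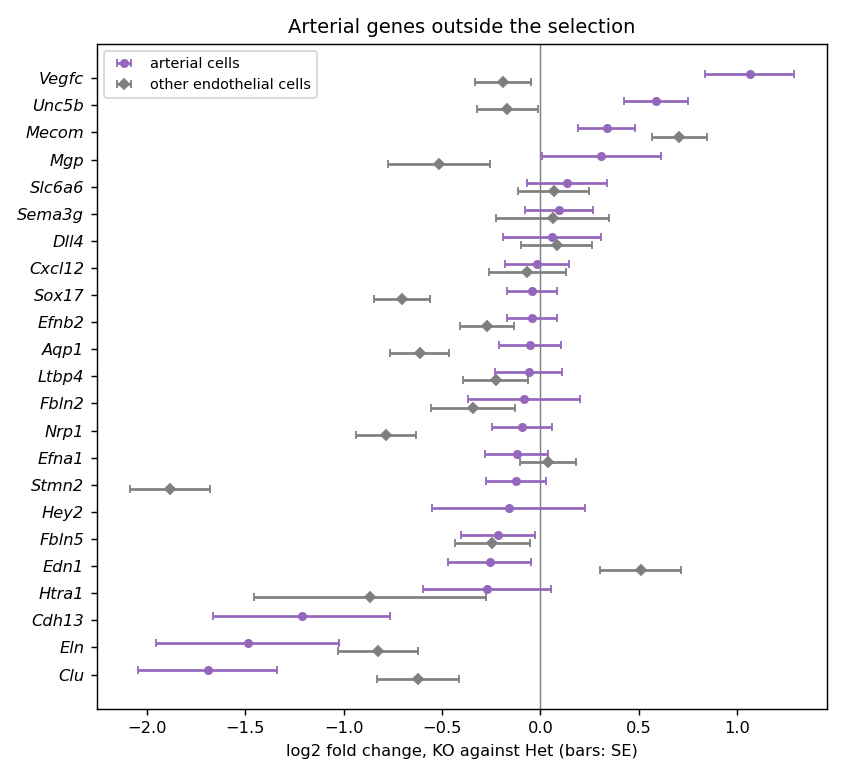
Log2 fold change of KO against Het (x axis, with SE bars) for the 23 arterial genes outside the selection that were tested in arterial cells (rows), shown for arterial cells and, where tested, for other endothelial cells. Arterial values of Sox17, Efnb2, Cxcl12 and Stmn2 lie within 0.13 of 0, while Stmn2 in other endothelial cells lies at -1.88.

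The signalling groups of arterial cells gave the same count with edgeR. Of the Notch list 17 genes were tested and 0 passed (2 higher and 1 lower at an unadjusted p under 0.05), with a median log2 fold change of 0.10. Jag1 had 293 and 247 CPM in the Het libraries and 428, 291 and 330 CPM in the KO libraries (0.36, SE 0.18), and Notch1 had 318 and 262 CPM against 334, 288 and 312 CPM (0.10, SE 0.15). Ephrins, semaphorins and their receptors had 0 of 19 past the threshold (3 higher and 5 lower unadjusted, median -0.09), VEGF and angiopoietin genes 0 of 12 (1 higher unadjusted, median -0.06), and gap-junction genes outside the selection 0 of 3 (0 unadjusted, median 0.10). ALK1 and BMP signalling, the endothelial branch of the TGF-beta family, had 0 of 17 (1 higher and 2 lower unadjusted, median -0.22). DESeq2 called 1 gene in these groups, Dlk1 of the Notch list. The ALK1 co-receptor Eng had 317 and 347 CPM in the Het libraries and 276, 220 and 209 CPM in the KO libraries (-0.51, SE 0.16, adjusted p = 0.303, edgeR).

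Genes of vascular tone and flow had 0 of 17 past the threshold with edgeR (1 higher and 4 lower unadjusted, median -0.10). Klf2, a factor induced by shear stress, had 1209 and 1031 CPM in the Het libraries and 1447, 952 and 898 CPM in the KO libraries, with overlap. Ace, the angiotensin-converting enzyme, had 531 and 476 CPM against 332, 259 and 263 CPM (-0.83, SE 0.15, adjusted p = 0.0603, edgeR) without overlap. Matrix genes had 0 of 31 (3 higher and 3 lower unadjusted, median -0.01) and endothelial transcription factors 1 of 26, Tbx3 (median -0.08). Chemokine and adhesion genes had 0 of 17 (3 lower unadjusted, median -0.26), and genes of solute and lipid transport 3 of 12, namely Lpl, Cd36 and Car4 (median -0.22). DESeq2 also called Ace, the basement-membrane gene Col18a1 and the transcription factor Foxf1 in these groups.

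The same tests in the 997 other endothelial cells called 458 of 10104 genes (4.53%), 124 higher (1.23%) and 334 lower (3.31%). With their UMIs thinned to the arterial totals, an alternative added after seeing the data, 325 of 8102 genes passed. Of the 11 arterial calls, 10 were tested there and all 10 passed in the same direction. Of the 458 genes called in other endothelial cells, 410 were tested in arterial cells, and 376 had the same sign in arterial cells. In arterial cells 206 of them had an unadjusted p under 0.05 (edgeR), as did 9.55% of all genes tested. Both classes come from the same libraries. Tbx3 fell by 1.88 on the log2 scale in other endothelial cells, Hilpda by 1.69, Scn3b by 1.66, Lpl by 1.15, Pltp by 0.92 and Cd36 by 0.80. Egfl8 was too low there to be tested.

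Whether the genotype effect differed between the 2 classes was tested gene by gene in 1 model with the library as a block. Of 10004 genes, 3 passed (0.03%; 565, or 5.65%, at an unadjusted p under 0.05). Stmn2 had 875 and 632 CPM in arterial cells of the Het libraries and 641, 749 and 684 CPM in those of the KO libraries, and the groups overlapped. In other endothelial cells it had 140 and 94.9 CPM against 38.7, 25.9 and 31.8 CPM, and fell by 1.88. The effects differed by 1.75 on the log2 scale (SE 0.20, adjusted p = 0.00413, edgeR).

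Tmem100, a membrane protein of arterial endothelium controlled by ALK1 signalling, had 303 and 264 CPM in arterial cells of the Het libraries and 252, 223 and 232 CPM in the KO libraries, with the KO values below both Het values (-0.27, SE 0.14, adjusted p = 0.604, edgeR). In other endothelial cells it had 122 and 98.6 CPM against 19, 13.8 and 30.3 CPM, and fell by 2.43. The effects differed by 2.15 (SE 0.25, adjusted p = 0.00413, edgeR). Without KO1 the adjusted p was 0.0764. Aerocyte markers were lower in the same cells: 6 of 8 tested passed as lower, and the 9 summed to 1074 and 1029 plain CPM in other endothelial cells of the Het libraries against 338, 223 and 322 in the KO libraries. A Car4 UMI was found in 26.4% and 26.1% of these cells against 1.74%, 2.65% and 5.22%. Their part in the Tmem100 and Stmn2 values was not tested. The mix of arterial cells moved as well: in low-marker cells Tmem100 was at 230 and 268 plain CPM in the Het libraries and 106, 90.3 and 102 in the KO libraries, and in high-marker cells at 348 and 252 against 314, 304 and 285. With high-marker cells set against endothelial cells that had none of the 5 genes, the effects differed by 2.66 for Tmem100 (adjusted p = 0.00437) and 2.19 for Stmn2 (adjusted p = 0.00111, edgeR).

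Sfrp2, a secreted antagonist of Wnt ligands, was the third gene, at -6.15 (SE 0.90, adjusted p = 0.0324, edgeR). It rested on Het2, whose arterial cells held 201 UMIs in 3 cells, 112 of them in 1 cell, against 1 to 16 UMIs in the other libraries. Without Het2 the difference was -2.52 (adjusted p = 0.853). Of the 23 arterial-list genes in this model, 9 had an unadjusted p under 0.05, among them Sox17 (0.66, SE 0.18, adjusted p = 0.501) and Nrp1, a VEGF and semaphorin co-receptor (0.70, SE 0.15, adjusted p = 0.224). In other endothelial cells Sox17 fell by 0.70 (adjusted p = 0.018, edgeR) and Nrp1 by 0.79 (adjusted p = 0.0159, edgeR), but the difference from arterial cells passed for neither.

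**Figure D5:**
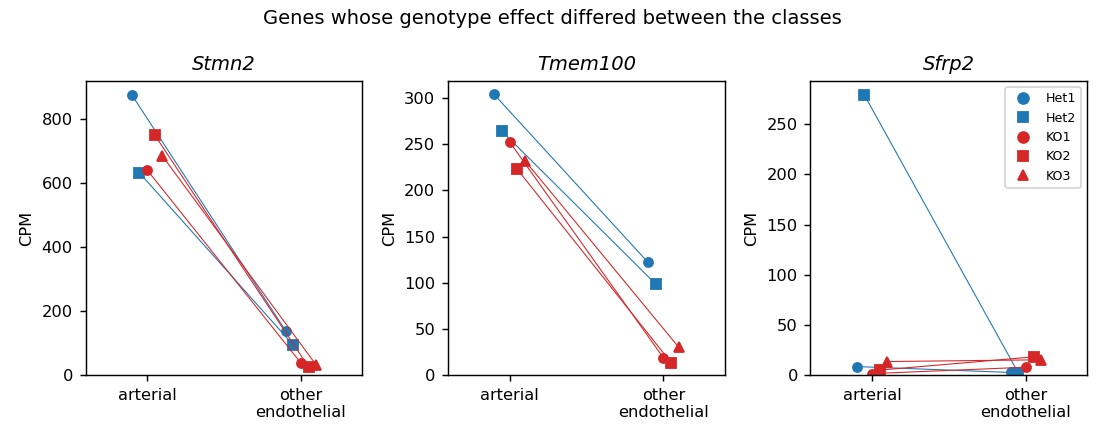
CPM (y axis, linear, from 0) of the 3 genes whose genotype effect differed between classes, in arterial and other endothelial cells (x axis); lines join the 2 classes of 1 library. Stmn2 and Tmem100 are separate by genotype in other endothelial cells and close in arterial cells, and Sfrp2 stands out in the arterial cells of Het2 alone.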

How the data were processed

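The deposited values are UMI counts per gene and barcode, made with Cell Ranger 4.0.0 on mm10, per the submitters' processing notes; no deposited cell annotation was used here. Arterial cells were chosen by the 14 genes of the selection, whose levels are given without a test. Counts were summed per library and class and tested with edgeR 4.0.16 (R 4.3.3; filterByExpr with a minimum count of 10, TMM scaling, quasi-likelihood test, Benjamini-Hochberg adjustment over all genes tested). CPM uses TMM-scaled library sizes; plain CPM are plain shares of a sum. Shares of cells were compared by exact permutation over libraries. The 95% intervals are exact binomial ones. With 1 embryo per library, p-values set a group difference against the spread between 2 and 3 embryos. In the class comparison this is the spread of each library's difference between arterial and other endothelial cells. Doublets were kept, and leaving out those with the highest simulated-doublet scores (0.8% per 1000 barcodes) was an alternative, as were DESeq2 1.42.0, other filters and scalings, a replicate block, sex, and leaving out each library. The text names genes past the threshold without overlap and with at least 20 CPM in the higher group, up to 10 per direction, members of 28 gene lists past the threshold or described as their group, and up to 5 genes per direction of the class comparison. Members and lists were chosen with earlier results of these data known. Coordinates are those of GENCODE M21. The tests were checked on simulated data with known changes. A log2 change of 1 was recovered for 42.9% of the changed genes in arterial cells, 68.8% in other endothelial cells and 5.15% in the class comparison. For a log2 change of 2 these were 99.5%, 98% and 71.3%. Each simulation changed 200 genes. With fewer changed genes the adjusted threshold is harder to pass, so these shares may not hold for the real data. Prnd, with a larger estimate than this, did not pass in arterial cells. A gene that did not pass may therefore still differ, above all in the class comparison.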

Additional observations from a re-analysis of the deposited data

Results flagged for a closer look

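For 3 genes a test of the difference itself found that the genotype effect was not the same in arterial and other endothelial cells. The differences, arterial minus other endothelial cells on the log2 scale, were 2.15 for Tmem100, 1.75 for Stmn2 and -6.15 for Sfrp2. For Tmem100 and Stmn2 the KO libraries were lower in other endothelial cells than the Het libraries by 2.43 and 1.88, while the arterial estimates were -0.27 and -0.12. The Sfrp2 value turned on 3 arterial cells of Het2. No group had 4 libraries, so single libraries were not screened for standing apart.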

How the results depend on the processing

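The arterial count of 11 genes became 36 with DESeq2, 254 without the low-count filter, 24 with a minimum count of 20, 31 with doublets left out, 7 under cell limits of 1000 genes and 10% mitochondrial UMIs, 6 with mixed cells left out (none of the 5 of the 11 still tested among 2529 genes, at log2 fold changes of -1.71 for Hilpda, -1.37 for Scn3b, -0.99 for Pltp, -0.79 for Tbx3 and -0.46 for Cd36), 6 with sex as a covariate, 0 in cells with at least 3 of the 5 genes, 2 without Car4-positive cells and 18 in cells with exactly 2 genes, an alternative added after seeing the data. It ran from 0 to 48 when 1 library was left out. The replicate numbers are shared by 2 pairs of libraries and mark no common litter or day in the labels. With them as a replicate block, 39 genes passed, all 11 among them. KO3 is alone in its block, so that genotype estimate rests on Het1 with KO1 and Het2 with KO2, without KO3. The share of calls higher in KO was 9.09% in the main count, 25.0% with DESeq2, 66.7% with the sex covariate, 23.1% with the block, and 0 of 9 genes with library size alone and 0 of 48 without Het1, where Egfl8 lost its call. All 11 kept their direction under each alternative that tested them, and S100a8 lost its call under 12 of 17. In other endothelial cells the count of 458 became 1017 without the filter and 113 with sex, and ran from 98 to 611 with 1 library left out. There the estimate changed sign for Neat1 (0.18) and Zswim8 (-0.42) with mixed cells left out, and the cause was not tested. It also did for Zswim8 (-0.028) with sex, where the genotype estimate rests on KO3 against Het1 and Het2. In other endothelial cells Zswim8 was at 35.1 and 44.5 plain CPM in Het1 and Het2 and at 38.6 in KO3. The class comparison's count of 3 became 62 without the filter, 11 with mixed cells left out and 26 for at least 3 against none of the 5 genes (added after seeing the data), and ran from 1 to 13 with 1 library left out. The share difference of 10.3 points lay between 7.30 and 13.7 with 1 library left out. Limits are the 47 to 70 arterial cells per library, the 5 embryos, and a selection that needs a UMI of low transcripts and so moves with depth.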

Other observations

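In the gene groups outside the arterial programme that follow, Lpl and Car4 were the only members called by edgeR in arterial cells. Imprinted and IGF genes had 0 of 19 past the threshold (5 higher and 1 lower at an unadjusted p under 0.05; 2 by DESeq2, H19 and Dlk1), with 13 estimates above 0 and a median log2 fold change of 0.19. H19, the imprinted noncoding RNA, had 998 and 1324 CPM in the Het libraries and 2325, 1724 and 2436 CPM in the KO libraries (0.90, SE 0.17, adjusted p = 0.0669, edgeR), and Dlk1, an imprinted Notch-family ligand, had 59.2 and 33.3 CPM against 120, 100 and 229 CPM. Neither overlapped between the groups. Genes of microRNA decay had 0 of 14 (2 unadjusted and 1, H19, by DESeq2, median 0.09), midkine genes 0 of 7 (3 unadjusted, median 0.12), cell-cycle genes 0 of 23 (4 unadjusted, median -0.14) and immediate-early genes 0 of 18 (1 unadjusted, median -0.08). Col18a1, a basement-membrane collagen, had 200 and 153 CPM in the Het libraries and 327, 332 and 329 CPM in the KO libraries (0.90, adjusted p = 0.0603, edgeR).

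Interferon-response genes had 0 of 13 past the threshold (7 lower unadjusted; 2 by DESeq2, Ly6e and Ly6a), with all 13 estimates below 0 under TMM, plain library-size and DESeq2 scaling and a median of -0.70 beside 0.01 for all genes tested. The libraries did not split by genotype throughout: Irf7, a transcription factor of the interferon response, had 32.7 and 22.2 CPM in the Het libraries, 27.2 CPM in KO1, and 1.06 and 4.31 CPM in KO2 and KO3. KO1 thus lay between the Het libraries.

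Markers of neighbouring cells varied by library. Smooth-muscle markers summed to 2454 plain CPM in KO3 arterial cells against 225 to 1115 in the other libraries, and 984 of the 1216 Acta2 UMIs of KO3 came from 1 cell. All 7 tested smooth-muscle markers had estimates above 0 (median 0.87) and 0 passed (1 unadjusted). The part of these cells in other values was not tested. Haemoglobin and other erythroid markers summed to 1779 plain CPM in KO1 and 8635 to 17102 in the other libraries. For the remaining lists, counts past the threshold were 0 of 14 pan-endothelial (median -0.17; 4 lower unadjusted), 0 of 6 venous (-0.03; 1 higher unadjusted), 1 of 9 general-capillary, Lpl (-0.20), 1 of 6 aerocyte, Car4 (-0.93; Prx also by DESeq2), 0 of 2 lymphatic (-0.52; 1 unadjusted), 0 of 7 pericyte (0.59; 3 higher unadjusted and 1, Rgs5, by DESeq2), 0 of 5 fibroblast (0.00; 1 unadjusted), 0 of 6 epithelial (-0.30; 0 unadjusted), 0 of 4 immune (-1.39; 4 lower unadjusted) and 0 of 5 erythroid genes (-0.33; 0 unadjusted).

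Chosen after their values were seen, 2 further genes were higher in the KO libraries without passing. Phlda1 had 27.7 and 31.9 CPM in the Het libraries and 79.9, 90.8 and 151 CPM in the KO libraries (log2 fold change 1.88, SE 0.32, adjusted p = 0.0603, edgeR). It passed with DESeq2 (adjusted p = 0.00152) and, with edgeR, without Car4-positive cells (adjusted p = 0.0497). Prnd, which encodes the prion-like protein doppel, had 13.8 and 18.0 CPM against 49.0, 110 and 64.7 CPM (2.25, SE 0.39, adjusted p = 0.0603, edgeR).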
